A study of Mus musculus with 8 samples.

Results

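The 10 genes described here encode proteins of the contractile actin apparatus that myofibroblasts assemble, together with a transcription factor known to control such genes. They are Acta2, Actg2, Tagln, Cnn1, Cnn2, Tpm1, Tpm2, Tpm4, Cald1 and Srf. They were chosen by name, as the genes with these symbols among the 12528 genes measured, and all 10 were found and tested. Expression was measured by RNA sequencing of mouse embryonic fibroblasts (MEFs) that were isolated from wild-type (WT) mice and littermates lacking caveolin-1 (Cav1KO) and then immortalized. The cells were seeded sparsely on stiff or on soft polyacrylamide hydrogels and lysed after 24 h, which gave 2 libraries in each of 4 groups, named below by genotype and substrate. The Cav1KO cells lack the gene in all conditions, and the sources used here do not give the number of lines of each genotype, so the effect of the deletion and that of the line cannot be told apart. Nothing says that the 2 libraries of a group came from separate cultures, so the p-values measure only the spread between these libraries, which may be technical.

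Myofibroblasts are fibroblasts that have acquired smooth-muscle-like stress fibers and pull on their surroundings. Their hallmark is smooth muscle alpha-actin, and tropomyosins, calponins, transgelin and caldesmon bind along actin filaments and set how myosin uses them. Many of these genes are targets of SRF, a transcription factor that binds a short motif called the CArG box and that is switched on by myocardin-related coactivators when monomeric actin becomes scarce. Caveolin-1 is the coat protein of caveolae, membrane pits linked to the actin cytoskeleton, and the study asked whether it takes part in the response of cells to the stiffness of their substrate.

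Promoter sequences are shown because the CArG box is the element through which SRF acts. RefSeq promoters (build GRCm38.p6, from 250 bases before to 50 bases after the transcription start) were matched for 8 of the 10 genes, 9 promoters in all. The pattern was CC, then 6 bases that are each A or T, then GG, which reads the same on both strands. An exact match was present in 535 of 32851 promoters (1.63%), and a match with at most 1 differing base in 21.1%. Among the 8 genes, Srf had 2 exact matches and Cnn2 had 1. Capitals mark the matches in the windows below, each written 5′ to 3′ on the strand of its gene, and the last match in the Srf window differs from the pattern at 1 base.
Srf, chr17:46556183-46556302, minus strand: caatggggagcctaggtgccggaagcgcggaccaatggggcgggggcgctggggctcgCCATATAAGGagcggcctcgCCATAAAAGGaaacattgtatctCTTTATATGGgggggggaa
Cnn2, chr10:79988460-79988579, plus strand: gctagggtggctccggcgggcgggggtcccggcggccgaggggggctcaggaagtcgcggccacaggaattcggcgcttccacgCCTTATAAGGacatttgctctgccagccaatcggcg
Acta2 had 2 matches with 1 base off and no exact match, and these are shown with 10 bases on each side.
Acta2, chr19:34255438-34255467, minus strand: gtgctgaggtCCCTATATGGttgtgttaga
Acta2, chr19:34255388-34255417, minus strand: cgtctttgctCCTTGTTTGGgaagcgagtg

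In the Srf promoter the exact matches begin 82 and 62 bases before the start, and in Cnn2 the match begins 56 bases before it. The Acta2 matches begin 84 and 34 bases before the start. That start is the RefSeq one. In GENCODE M21, used below for gene coordinates, the Acta2 gene reaches up to 34255590, so both matches lie within it. Tpm1 had 2 matches with 1 base off, and 1 of the 2 promoters of Cald1 had 1. The windows of Cnn1, Tpm2 and Tpm4 held no match with at most 1 base off, which says only that these letters are not in these windows. Tagln and Actg2 were not matched to a promoter.

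The reads assigned to the listed genes numbered 17089836 to 19944952 per library, and the 10 most abundant genes took 7.17% to 9.10% of them. Values are TMM-normalized CPM as deposited, that is, reads of a gene relative to the scaled size of its library. A gene at 0 reads in a library could still have up to 3 reads, which is 0.151 to 0.181 CPM, and this limit covers counting error only. Cav1, the deleted gene, had 949.8 to 1157 CPM in WT cells and 1 to 8 reads in each Cav1KO library. Of 10 fibroblast markers, 8 were among the listed genes, and none of the 5 epithelial or 5 endothelial markers was. In the 4 groups, the summed level of the 8 fibroblast markers was 9179 to 9350 CPM in WT stiff, 11701 to 11869 in WT soft libraries, 4449 to 5532 in Cav1KO stiff and 13205 to 13239 in Cav1KO soft libraries. Of 6 smooth muscle and pericyte markers 2 were listed, Lmod1 and Notch3, with a summed level between 3.71 and 34.6 CPM that was highest in Cav1KO soft libraries. Of 10 skeletal and cardiac muscle markers 2 were listed, with summed levels of 3.59 to 4.87 CPM in WT stiff and at most 2.10 CPM in the other groups. Of 6 macrophage markers 2 were listed, Cd14 and Cd68, with summed levels of 24.9 to 40.4 CPM in WT and 92.8 to 104 CPM in Cav1KO libraries. The part of these markers in the results was not tested. In bulk RNA, fewer cells of a type and less RNA per cell cannot be told apart.

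In WT cells, 7 of the 10 genes were higher with the stiff substrate and none was lower. The 7 were Acta2, Actg2, Tagln, Cnn1, Tpm1, Tpm4 and Srf. Tests were made with limma on log2(CPM + 1), two-sided, over 12494 genes, with Benjamini-Hochberg adjustment and a threshold of 0.05, a scale on which changes of weakly expressed genes come out too small. Of all genes tested, 48.4% were called in this comparison, 22.1% as higher and 26.3% as lower. The median log2 fold change of the 10 genes was 0.45, beside -0.02 over all genes tested. With a 2-fold change also required, Tagln alone of the 10 was called.

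In Cav1KO cells the 10 genes split. Tagln, Tpm1, Tpm4 and Srf were higher on the stiff substrate, whereas Acta2, Cnn2 and Cald1 were lower. Over all genes 56.1% were called, 27.9% as higher and 28.2% as lower. The median log2 fold change of the 10 genes was -0.14, beside -0.02 over all genes, and none of the 10 passed when a 2-fold change was also required.

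The difference between the stiffness effects, WT minus Cav1KO, was tested as an interaction. It passed the threshold for 5 of the 10 genes, Acta2, Actg2, Cnn1, Cnn2 and Cald1, each with the higher value in WT cells. Over all genes 10.5% were called, 4.47% with the higher value in WT cells. The median difference was 0.56 for the 10 genes, beside -0.07 over all genes. This count was the least stable of those given here. It was 3 with edgeR's quasi-likelihood test or DESeq2 on the recovered reads, with a pseudocount of 0.5 and without a mean-variance trend. Leaving out a library gave 1 without the first WT stiff library, 3 without the second, 1 without either WT soft library, 2 without the second Cav1KO stiff library, and with either Cav1KO soft library removed the limma count was 0. The highest count among the 10 was 6, with a pseudocount of 5 or with the trend on transcript length removed. Over all genes, 1309 were called in the main fit. That number was 902 with edgeR, 1500 with DESeq2, 1115 with a pseudocount of 0.5 and 705 without a mean-variance trend. It was 1708 with a pseudocount of 5 and 1501 with the length trend removed.

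Between genotypes, 9 of the 10 genes were lower in Cav1KO than in WT cells on the stiff substrate, all but Cald1. Over all genes 51.7% were called, 26.6% as lower and 25.0% as higher. On the soft substrate 8 were lower and Cald1 was higher, and Cnn2 did not pass the threshold. Over all genes 54.0% were called, 29.9% as lower and 24.1% as higher. The median log2 fold change, Cav1KO minus WT, was -0.56 on the stiff and -0.36 on the soft substrate, beside -0.03 over all genes on each. The comparisons of stiffness and of genotype use the same libraries and are not independent of each other.

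**Figure D1:**
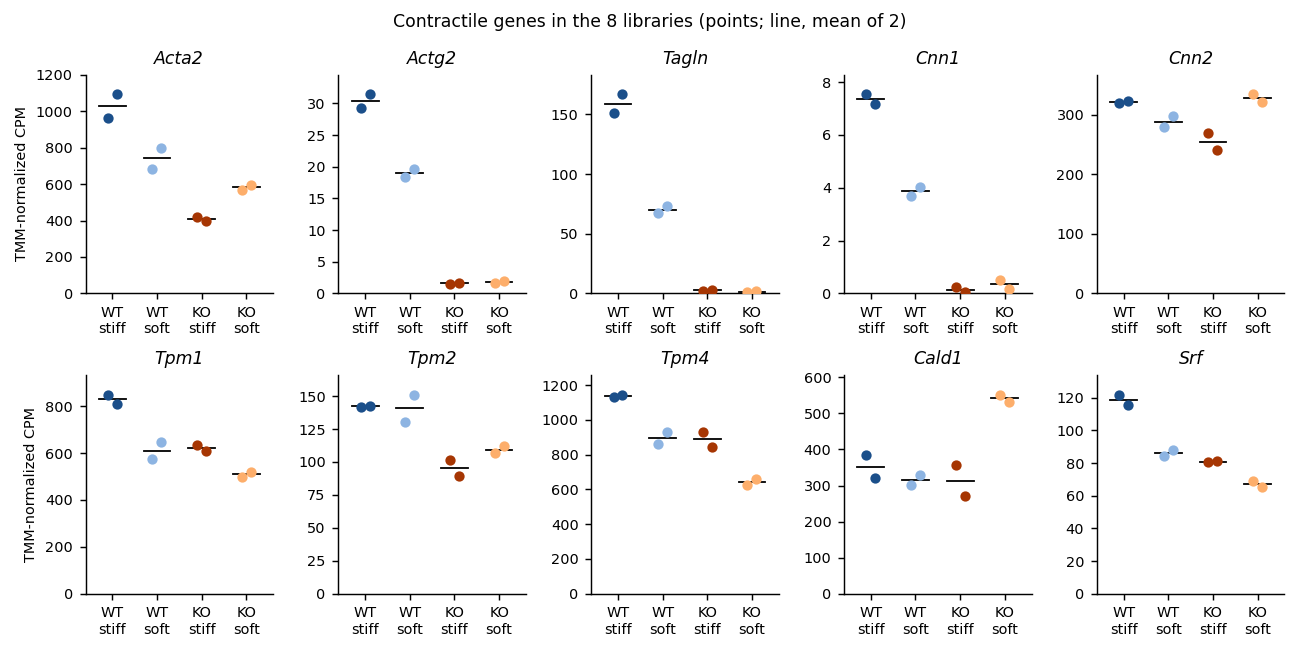
Level of each gene in the 8 libraries, in TMM-normalized CPM on axes that start at 0. Points are libraries, lines are means of 2, and KO stands for Cav1KO. Actg2, Tagln and Cnn1 sit close to 0 in all 4 Cav1KO libraries, and Cald1 is highest in Cav1KO soft.

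Acta2 (ENSMUSG00000035783, chromosome 19 from 34241090 to 34255590, minus strand; coordinates throughout for genes are those of GENCODE M21 on GRCm38) encodes smooth muscle alpha-actin. Its level in WT cells was 966 and 1093 CPM on the stiff and 685 and 797 CPM on the soft substrate. The Cav1KO libraries had 417 and 398 CPM on stiff and 571 and 593 CPM on soft gels. The 4 groups did not overlap, and their order was WT stiff, WT soft, Cav1KO soft, Cav1KO stiff, so that the stiff libraries were the highest in WT and the lowest in Cav1KO cells. Such separation was common. Over all genes tested, the libraries were apart between substrates for 75.3% in WT and for 78.5% in Cav1KO cells. Between genotypes they were apart for 72.7% on the stiff and for 81.1% on the soft substrate. Acta2 was higher on the stiff substrate in WT cells (log2 fold change 0.47, SE 0.095, limma adjusted p = 0.00381) and lower on it in Cav1KO cells (-0.51, SE 0.095, limma adjusted p = 0.00202). The difference of 0.99 between them (95% interval 0.68 to 1.29, limma adjusted p = 0.00752) also passed with edgeR and DESeq2. It no longer passed without the first (adjusted p = 0.05001) or the second (0.0583) Cav1KO soft library. Acta2 was 2.53-fold higher in WT than in Cav1KO cells on the stiff substrate (log2 fold change, Cav1KO minus WT, -1.33, limma adjusted p = 8.96e-06). On the soft substrate it was 1.27-fold higher (log2 fold change -0.35, limma adjusted p = 0.01465). The soft difference no longer passed with quantile normalization (adjusted p = 0.196), nor without the second WT soft (0.0984), the first Cav1KO soft (0.0949) or the second Cav1KO soft library (0.0577).

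Actg2 (ENSMUSG00000059430, chromosome 6 from 83512905 to 83536265, minus strand) encodes smooth muscle gamma-actin, an actin of visceral smooth muscle. In WT cells it was at 29.2 and 31.4 CPM on stiff and at 18.4 and 19.6 CPM on soft gels. The Cav1KO libraries had 1.53 and 1.64 CPM on stiff and 1.57 and 1.90 CPM on soft gels, from 26 to 37 reads each. The WT groups were apart from each other and from all Cav1KO libraries, and the Cav1KO groups overlapped. WT exceeded Cav1KO by 19.1-fold on the stiff substrate (log2 fold change -3.60, limma adjusted p = 1.56e-07) and by 10.96-fold on the soft substrate (-2.87, limma adjusted p = 5.35e-07). Actg2 rose with stiffness in WT cells by 0.65 (SE 0.13, limma adjusted p = 0.00381). In Cav1KO cells the value was -0.08 (95% interval -0.37 to 0.22, limma adjusted p = 0.640), and its sign turned under median centring (0.0088), under quantile normalization (0.23) and without the second Cav1KO soft library (0.010). The difference between the effects was 0.72 (limma adjusted p = 0.0445) and lay near the threshold. It did not pass with edgeR (adjusted p = 0.0651), DESeq2 (0.144), a pseudocount of 0.5 (0.0538), median centring (0.0532) or quantile normalization (0.113). Nor did it pass without any 1 of 7 libraries, all but the first Cav1KO stiff library, with adjusted p between 0.0777 (second WT stiff library left out) and 0.144 (second Cav1KO soft library left out).

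Tagln (ENSMUSG00000032085, chromosome 9 from 45929619 to 45936058, minus strand) encodes transgelin, or SM22-alpha, a calponin-related protein that bundles actin and is an early marker of smooth muscle. WT cells had 151 and 167 CPM on stiff and 67.5 and 73.0 CPM on soft gels. Cav1KO cells had 2.18 and 2.90 CPM on stiff and 1.15 and 1.65 CPM on soft gels, from 22 to 53 reads per library. None of the groups overlapped, and the stiff libraries were the higher ones in both genotypes. WT exceeded Cav1KO by 62.5-fold on the stiff substrate (log2 fold change -5.50, SE 0.15, limma adjusted p = 3.46e-08) and by 50.3-fold on the soft substrate (-4.90, limma adjusted p = 5.63e-08). On the stiff substrate this was the 18th lowest value of the 12494 genes tested.

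With stiffness Tagln rose by 1.17 on the log2 scale in WT cells (SE 0.15, limma adjusted p = 0.000384), a ratio of 2.26 and the 93rd highest of 12494 values. In Cav1KO cells it rose by 0.56 (SE 0.15, limma adjusted p = 0.0112), a ratio of 1.82. The Cav1KO rise did not pass with a pseudocount of 5 (0.24, adjusted p = 0.0689), with the Cav1KO groups fitted alone (0.0553), without the second Cav1KO stiff library (0.41, adjusted p = 0.0585) or without the first Cav1KO soft library (0.41, adjusted p = 0.0863). The difference of 0.60 between the effects did not pass (95% interval 0.13 to 1.08, limma adjusted p = 0.0875). It was larger and passed with a pseudocount of 5 (0.89, adjusted p = 0.00884) and with the length trend removed (0.80, adjusted p = 0.0288). It was smaller with edgeR (0.31, adjusted p = 0.434), DESeq2 (0.32, adjusted p = 0.522) and a pseudocount of 0.5 (0.49, adjusted p = 0.181). Of the stretches of 60 nt in Tagln transcripts, 45.4% also occur in other annotated genes, Gm48529 and Pcsk7, which lie on the opposite strand. For Pcsk7 alone, the partner among the 12528 genes, the share was 3.19%, and it was at 17.2 to 22.3 CPM in all 8 libraries. Whether the counting used strand is not given in the sources used here, so the few Tagln reads of the Cav1KO libraries cannot be told apart from reads of these partners.

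Cnn1 (ENSMUSG00000001349, chromosome 9 from 22099216 to 22109630, plus strand) encodes calponin-1, an inhibitor of actomyosin typical of differentiated smooth muscle. It was the least abundant of the 10, with 7.53 and 7.18 CPM in WT cells on stiff and 3.69 and 4.03 CPM on soft gels. The Cav1KO libraries had 4 reads and 1 read on the stiff substrate (0.235 and 0.0548 CPM), and 10 and 3 reads on the soft substrate (0.523 and 0.154 CPM). The WT groups were apart, and all 4 Cav1KO libraries lay far below them and overlapped between substrates. The ratio of WT to Cav1KO was 51.9 on the stiff substrate (95% counting interval 21.99 to 161) and 11.5 on the soft substrate (6.49 to 22.1), from pooled normalized reads. The log2 fold changes were -2.87 (limma adjusted p = 3.73e-06) and -1.87 (limma adjusted p = 4.28e-05), and at these counts they depend on the pseudocount.

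In WT cells Cnn1 rose with stiffness by 0.78 (SE 0.18, limma adjusted p = 0.00669), a ratio of 1.91, and did not pass with DESeq2 (adjusted p = 0.0732). In Cav1KO cells the value was -0.22 (95% interval -0.62 to 0.19, limma adjusted p = 0.329). On the recovered reads, without the added 1 CPM, it was -1.21 with edgeR (adjusted p = 0.206) and -1.25 with DESeq2 (adjusted p = 0.229). The difference of 0.999 passed (95% interval 0.43 to 1.57, limma adjusted p = 0.0431). It was larger but did not pass with edgeR (2.14, adjusted p = 0.114) or a pseudocount of 0.5 (1.21, adjusted p = 0.0645), and DESeq2 gave no adjusted p. Nor did it pass without any 1 of 7 libraries, all but the first Cav1KO stiff library, with adjusted p between 0.0617 (second WT stiff library left out) and 0.158 (first Cav1KO soft library left out).

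Cnn2 (ENSMUSG00000004665, chromosome 10 from 79988584 to 79996062, plus strand) encodes calponin-2, the calponin found in many cells outside muscle. Its values in WT cells were 319 and 323 CPM on stiff and 279 and 298 CPM on soft gels. Those in Cav1KO cells were 269.9 and 240.0 CPM on stiff and 334 and 322 CPM on soft gels. Cav1KO stiff was the lowest group, and WT stiff and Cav1KO soft overlapped. It fell with stiffness in Cav1KO cells (log2 fold change -0.36, SE 0.078, limma adjusted p = 0.00409). In WT cells the value was 0.16 (95% interval -0.02 to 0.33, limma adjusted p = 0.131), which passed with the length trend removed (0.28, adjusted p = 0.0156). The difference of 0.52 passed (95% interval 0.27 to 0.77, limma adjusted p = 0.0306), also with edgeR and DESeq2. It did not pass without a mean-variance trend (adjusted p = 0.0617), nor without any 1 of 6 libraries, namely the first WT stiff (0.103), the first or second WT soft (0.102 and 0.0564), the second Cav1KO stiff (0.0671) and the first or second Cav1KO soft library (0.143 and 0.107). Between genotypes Cnn2 was lower in Cav1KO cells on the stiff substrate (-0.33, limma adjusted p = 0.00684). On the soft substrate the value was 0.18 (95% interval 0.0064 to 0.36, limma adjusted p = 0.0748), which passed without the first (0.0441) or the second (0.0445) Cav1KO stiff library, with the soft groups fitted alone (0.0380) and with the length trend removed (0.0184).

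**Figure D2:**
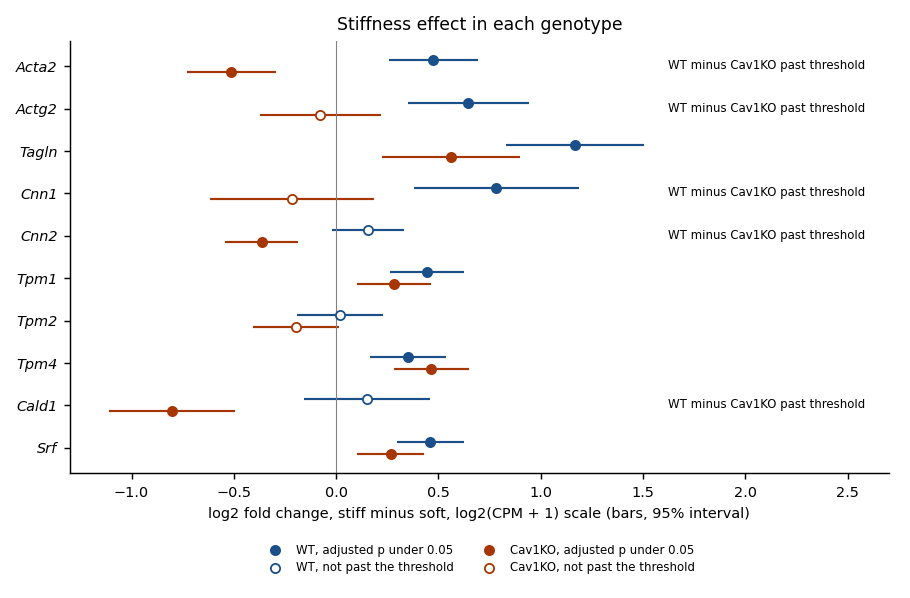
Log2 fold change between the stiff and the soft substrate in WT and in Cav1KO cells, with 95% intervals from limma on the log2(CPM + 1) scale. Filled points passed an adjusted p of 0.05, and the 5 genes whose difference between genotypes passed are marked. Acta2 has values of 0.47 in WT and -0.51 in Cav1KO cells, and Tpm4 has 0.35 and 0.47.

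The 3 tropomyosin genes encode coiled-coil proteins that run along actin filaments and set which myosins and other proteins can bind there. Tpm1 (ENSMUSG00000032366, chromosome 9 from 67022590 to 67049406, minus strand) had 849 and 812 CPM in WT cells on stiff and 576 and 645 CPM on soft gels. Its Cav1KO values were 633 and 608 CPM on stiff and 499 and 519.9 CPM on soft gels. WT stiff was the highest and Cav1KO soft the lowest group, and the other two overlapped. It rose with stiffness in both genotypes, by 0.44 in WT cells (SE 0.079, limma adjusted p = 0.00204) and by 0.28 in Cav1KO cells (SE 0.079, limma adjusted p = 0.0143). The difference of 0.16 did not pass (95% interval -0.09 to 0.41, limma adjusted p = 0.326). The Cav1KO rise did not pass with quantile normalization (0.10, adjusted p = 0.342), nor without the first Cav1KO stiff (0.0521), the first Cav1KO soft (0.107) or the second Cav1KO soft library (0.0569). Tpm1 was lower in Cav1KO cells by log2 fold changes of -0.42 on the stiff (limma adjusted p = 0.00230) and -0.26 on the soft substrate (limma adjusted p = 0.0220). The soft difference did not pass with quantile normalization (adjusted p = 0.278), without a mean-variance trend (0.0504), with the length trend removed (0.0830), or without the second WT soft (0.131), the first Cav1KO soft (0.143) or the second Cav1KO soft library (0.0766).

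Tpm4 (ENSMUSG00000031799, chromosome 8 from 72134975 to 72153142, plus strand), a tropomyosin of non-muscle cells, had 1134 and 1145 CPM in WT cells on stiff and 860.2 and 927 CPM on soft gels. Its Cav1KO values were 931 and 844 CPM on stiff and 625 and 658 CPM on soft gels. Stiff exceeded soft in both genotypes, and the WT soft and Cav1KO stiff libraries overlapped. Its rise with stiffness was 0.35 in WT (log2, SE 0.081, limma adjusted p = 0.00739) and 0.47 in Cav1KO cells (SE 0.081, limma adjusted p = 0.00138). Without the first WT soft library, the WT rise was 0.30 (adjusted p = 0.0570). Alone of the 10 genes, Tpm4 had a smaller value in WT than in Cav1KO cells, with a difference of -0.11 that did not pass (95% interval -0.38 to 0.15, limma adjusted p = 0.496) and turned sign with quantile normalization (0.015) and with the length trend removed (0.032). Tpm4 was lower in Cav1KO cells on the stiff (-0.36, limma adjusted p = 0.00561) and on the soft substrate (-0.48, limma adjusted p = 0.00122). Of its transcript stretches of 60 nt, 14.5% also occur in Gm7809 or Gm26586, which are not among the 12528 genes.

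Tpm2 (ENSMUSG00000028464, chromosome 4 from 43514711 to 43523765, minus strand) encodes beta-tropomyosin, of muscle and fibroblasts. WT cells had 142 and 143 CPM on stiff and 130.4 and 151 CPM on soft gels, and Cav1KO cells had 101 and 89.7 CPM on stiff and 107 and 112 CPM on soft gels. The WT groups overlapped, and every WT library exceeded every Cav1KO library. In WT cells the stiffness value was 0.018 (95% interval -0.19 to 0.23, limma adjusted p = 0.889), with a sign that turned under quantile normalization (-0.05) and without the first WT soft library (-0.087). In Cav1KO cells it was -0.20 (95% interval -0.41 to 0.013, limma adjusted p = 0.0991), which passed with quantile normalization (-0.34, adjusted p = 0.0159) and without the first Cav1KO stiff library (-0.28, adjusted p = 0.0423). The difference of 0.22 did not pass (95% interval -0.08 to 0.51, limma adjusted p = 0.264). Tpm2 was lower in Cav1KO cells on the stiff (-0.57, limma adjusted p = 0.00102) and on the soft substrate (-0.36, limma adjusted p = 0.0108). The soft difference did not pass without the second WT soft (adjusted p = 0.0750) or the first Cav1KO soft library (0.0774).

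Cald1 (ENSMUSG00000029761, chromosome 6 from 34598500 to 34775473, plus strand) encodes caldesmon, which binds actin, myosin and tropomyosin and restrains their interaction. WT cells had 383 and 321 CPM on stiff and 302 and 330.1 CPM on soft gels. Cav1KO cells had 357 and 269.8 CPM on stiff and 552 and 532 CPM on soft gels. The Cav1KO soft libraries were the highest, and the other 3 groups overlapped. In Cav1KO cells Cald1 was lower on the stiff substrate (log2 fold change -0.80, SE 0.14, limma adjusted p = 0.00118), which is 1.73-fold. In WT cells the value was 0.15 (95% interval -0.16 to 0.46, limma adjusted p = 0.389). The difference of 0.95 passed (95% interval 0.52 to 1.39, limma adjusted p = 0.0269), also with edgeR and DESeq2. It did not pass without a mean-variance trend (adjusted p = 0.0508), nor without any 1 of 5 libraries, namely the first WT stiff (0.101), the first or second WT soft (0.0995 and 0.0583) and the first or second Cav1KO soft library (0.123 and 0.0991).

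On the soft substrate Cald1 was 1.71-fold higher in Cav1KO than in WT cells (log2 fold change 0.78, limma adjusted p = 0.00141). None of the other 9 was called with a higher value in Cav1KO cells. On the stiff substrate the value was -0.18 (95% interval -0.48 to 0.13, limma adjusted p = 0.307). It was 0.026 with the first Cav1KO stiff library alone. With the second alone it was -0.38 and passed (adjusted p = 0.0253). With a longest coding transcript of 4777 nt, Cald1 is the longest of the 10, the others reaching 1333 to 2890 nt. In Cav1KO cells the median log2 fold change with stiffness was 0.14 over genes of up to 2000 nt, -0.12 over those of 4000 to 6000 nt and -0.34 over those above 6000 nt. A like gradient lay between the 2 libraries of each stiff group. The second minus the first was 0.14 for genes of up to 2000 nt and -0.26 for those above 6000 nt in Cav1KO stiff, and 0.14 and -0.19 in WT stiff libraries. With the length trend of each library removed, the Cald1 value in Cav1KO cells was -0.63 and the difference between genotypes was 0.84, both past the threshold.

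Srf (ENSMUSG00000015605, chromosome 17 from 46548329 to 46556175, minus strand) encodes serum response factor. WT cells had 122 and 116 CPM on stiff and 84.1 and 88.2 CPM on soft gels, and Cav1KO cells had 80.7 and 81.2 CPM on stiff and 68.9 and 65.5 CPM on soft gels. None of the groups overlapped, and the order was WT stiff, WT soft, Cav1KO stiff, Cav1KO soft. Srf rose with stiffness by 0.46 in WT cells (SE 0.072, limma adjusted p = 0.00107) and by 0.27 in Cav1KO cells (SE 0.072, limma adjusted p = 0.0126). The Cav1KO rise did not pass with quantile normalization (0.17, adjusted p = 0.0851) or without the second Cav1KO soft library (0.23, adjusted p = 0.101). The difference of 0.19 did not pass (95% interval -0.04 to 0.42, limma adjusted p = 0.206). Srf was lower in Cav1KO cells on the stiff (-0.55, limma adjusted p = 0.000316) and on the soft substrate (-0.35, limma adjusted p = 0.00317). These differences were small beside those of Tagln, Actg2 and Cnn1, whereas the values of Tpm1, Tpm2 and Tpm4 were of similar size.

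**Figure D3:**
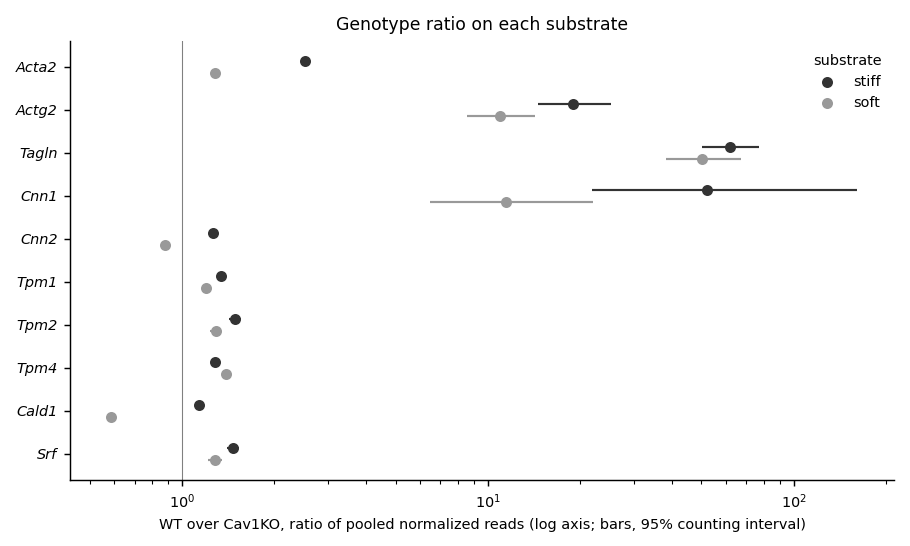
Ratio of WT to Cav1KO on each substrate, from the pooled normalized reads of 2 libraries on a log axis, with 95% intervals for counting error only. Tagln, Actg2 and Cnn1 stand apart at 10.97 or more on both substrates, and the other genes lie between 0.585 and 2.52.

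Relatives in the same gene families were compared per transcript length, as CPM per kb of the longest coding transcript. On this scale Tpm4 had the highest level of the 10 genes in every group, from 536 CPM per kb in WT stiff to 302 in Cav1KO soft libraries (means of 2), and Cnn1 the lowest. With the median transcript length instead, Acta2 ranked first in WT stiff, WT soft and Cav1KO soft libraries. Of the 4 actin genes compared, the cytoplasmic actins Actb and Actg1 made up most of the summed level. The share of Acta2 was 7.77% ± 0.540 (SD, n = 2) in WT cells on stiff gels and 7.30% ± 0.188 on soft gels, and 3.71% ± 0.0225 and 6.59% ± 0.0675 in Cav1KO cells on stiff and soft gels. The share of Actb was 39.0% ± 1.61 in WT stiff and 59.1% ± 1.03 in Cav1KO stiff libraries, and that of Actg1 was 52.9% ± 1.06 and 37.1% ± 1.004. Of the calponin and transgelin genes, Tagln2, the transgelin of non-muscle cells, was the most abundant. The share of Tagln was 12.5% ± 0.332 in WT cells on stiff gels and 6.57% ± 0.290 on soft gels, and 0.177% ± 0.0299 and 0.111% ± 0.0256 in Cav1KO cells on stiff and soft gels. Within the tropomyosins the shares moved less. Tpm4 held 47.1% ± 0.446 in WT stiff and 51.8% ± 0.792 in Cav1KO stiff libraries, and Tpm3, which is not one of the 10, held 21.8% ± 0.231 and 16.1% ± 0.257.

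**Figure D4:**
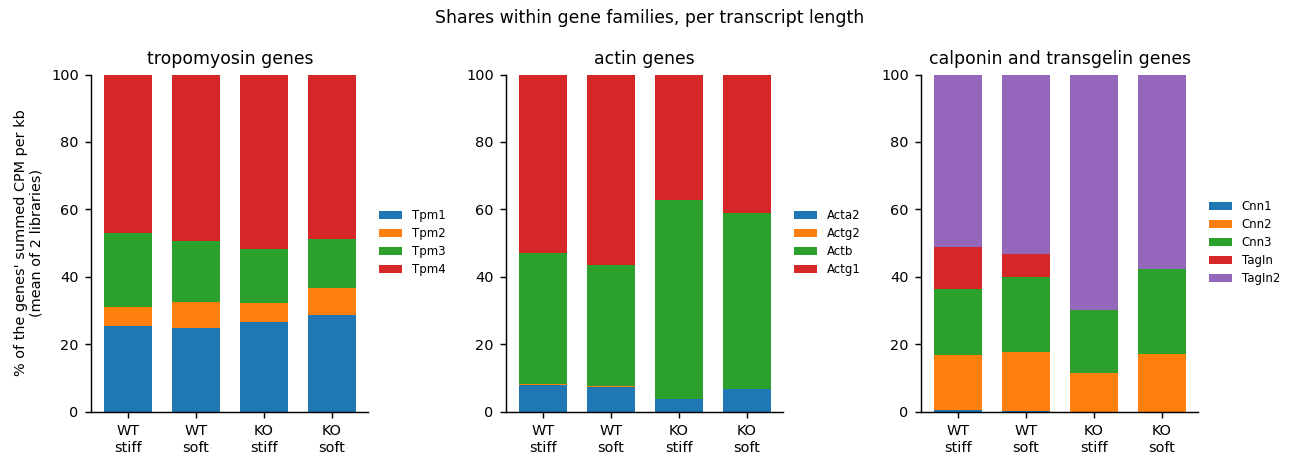
Share of each gene in the summed level of its family, in percent of CPM per kb of the longest coding transcript, as means of 2 libraries per group. KO stands for Cav1KO. Acta2 holds 7.77% of the actins in WT stiff and 3.71% in Cav1KO stiff, and Tagln holds 12.5% of the calponins and transgelins in WT stiff and 0.177% in Cav1KO stiff.

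Of 8 further actin, transgelin, calponin and tropomyosin genes, 5 were among the listed genes. In WT cells 3 of the 5 were higher on the stiff substrate, beside 22.1% of all genes, namely Actb, Actg1 and Tpm3. In Cav1KO cells 3 were higher and 1 was lower, beside 27.9% and 28.2%. Between genotypes on the stiff substrate, Actb (log2 fold change 0.33, limma adjusted p = 0.0346) and Tagln2 (0.62, limma adjusted p = 0.000327) were higher in Cav1KO cells, and Actg1 (-0.78, limma adjusted p = 0.000233) and Tpm3 (-0.93, limma adjusted p = 1.73e-05) were lower. Cnn3, the fifth, had a value of 0.10 (limma adjusted p = 0.222). For none of the 5 did the stiffness effects differ between genotypes past the threshold, beside 10.5% over all genes. So few genes do not set a count of none apart from that share. Cnn3 was the nearest (0.31, limma adjusted p = 0.0556). The Tagln2 increase on the stiff substrate thus ran opposite to the decrease of Tagln.

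Of 8 regulators of SRF, 6 were listed. In WT cells none was called higher with stiffness and 1 was called lower, and in Cav1KO cells 2 were called lower. The shares called lower over all genes, 26.3% in WT and 28.2% in Cav1KO cells, were near these. Between genotypes 1 was lower and 1 higher in Cav1KO cells on stiff gels, beside 26.6% and 25.0% over all genes. On soft gels 2 were lower and 3 higher, beside 29.9% and 24.1%. Mkl1 and Mkl2 encode the myocardin-related coactivators, which bind monomeric actin. Mkl1 was at 43.8 to 59.4 CPM in WT and at 49.3 to 78.0 CPM in Cav1KO libraries, and neither stiffness effect passed. On soft gels Mkl1 and Mkl2 were higher in Cav1KO cells, each by a log2 fold change of 0.59 (limma adjusted p = 0.0261 and 0.0123). On stiff gels neither was called between genotypes. Mkl2 was at 12.6 to 15.7 CPM in WT libraries, at 12.9 and 9.65 CPM in Cav1KO stiff and at 24.0 and 22.8 CPM in Cav1KO soft libraries. It fell with stiffness in Cav1KO cells (log2 fold change -1.01, limma adjusted p = 0.000775) and had a value of -0.11 in WT cells (limma adjusted p = 0.594). The gap of 0.90 between these effects passed (limma adjusted p = 0.0424). Its value under the other settings is not given, nor are those of the other genes outside the 10, so how stable such calls are is not shown. Elk1, a cofactor that SRF uses in growth factor signaling, was lower on stiff gels for both genotypes, with values of -0.55 for WT (limma adjusted p = 0.00111) and -0.24 for Cav1KO cells (limma adjusted p = 0.0442).

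Of 20 partners of the contractile apparatus, 15 were listed. In WT cells 3 were called lower with stiffness, a smaller share than the 26.3% over all genes, and none was called higher, beside 22.1%. The median log2 fold change was -0.06. In Cav1KO cells none was higher and 8 were lower, beside 27.9% and 28.2% over all genes, with a median of -0.40. Between genotypes on the stiff substrate 10 were lower and 2 higher in Cav1KO cells, beside 26.6% and 25.0%, with a median of -0.62. Myl9, the regulatory light chain of smooth muscle and non-muscle myosin, was at 25.6 to 35.1 CPM in WT libraries and at 0.986 to 1.85 CPM in Cav1KO libraries. It was lower in Cav1KO cells by a log2 fold change of -3.93 on the stiff (limma adjusted p = 4.11e-07) and -3.50 on the soft substrate (limma adjusted p = 7.37e-07). Mylk, the kinase of that light chain, lay the other way, at 0.399 to 1.15 CPM in WT and at 3.34 to 13.9 CPM in Cav1KO libraries. Its log2 fold change was 1.69 on the stiff (limma adjusted p = 0.000113) and 2.93 on the soft substrate (limma adjusted p = 4.15e-06). The LIM protein genes Csrp1 and Csrp2 were lower in Cav1KO cells on both substrates, with values of -1.12 and -1.73 on the stiff substrate (limma adjusted p = 1.94e-05 and 1.67e-05). Vcl, which encodes the adhesion protein vinculin, was at 251 and 205 CPM in WT stiff and at 161 and 106 CPM in Cav1KO stiff libraries. On soft gels it was at 166 and 194 CPM in WT and at 262 and 259 CPM in Cav1KO libraries. It was thus higher in Cav1KO cells on that substrate (log2 fold change 0.54, limma adjusted p = 0.0332). Stiff minus soft, its log2 value was 0.33 in WT (limma adjusted p = 0.156) and, in the knockout, -0.99 (limma adjusted p = 0.00177), and these effects differed by 1.32 (limma adjusted p = 0.0239).

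All 9 further genes associated with myofibroblasts that are described here, of matrix and of the TGF-beta response, were listed. In WT cells 1 was higher and 4 were lower on the stiff substrate, beside 22.1% and 26.3% over all genes. In Cav1KO cells none was higher and 8 were lower, beside 27.9% and 28.2%. The difference between these effects passed for 7 of the 9, each with the higher value in WT cells, beside 4.47% over all genes in that direction. The part of the transcript length gradient described for Cald1 was not tested for these genes or for the partners above. Ctgf, which encodes a matricellular protein, was the gene that rose in WT cells, by a log2 fold change of 1.099 (limma adjusted p = 0.00138). In Cav1KO cells its value was 0.38 (limma adjusted p = 0.105), and the difference of 0.72 did not pass (limma adjusted p = 0.0913). Col1a1, a chain of type I collagen, was at 2612 and 2515 CPM in WT stiff and at 859 and 591 CPM in Cav1KO stiff libraries, with a difference between the stiffness effects of 1.86 (limma adjusted p = 0.00457). Between genotypes on the stiff substrate 7 were lower in Cav1KO cells, beside 26.6% over all genes, among them Lox, a collagen cross-linking enzyme (-2.08, limma adjusted p = 3.00e-07). On the soft substrate 3 were lower and 3 higher, beside 29.9% and 24.1%, with a median of -0.03. Col1a1 had values of -1.85 on the stiff (limma adjusted p = 2.35e-05) and 0.016 on the soft substrate (limma adjusted p = 0.939). Postn, which encodes the matrix protein periostin, was the only one of the 9 that was higher in Cav1KO cells on the stiff substrate. It was at 0.456 to 2.78 CPM in WT libraries, at 93.3 and 59.2 CPM in Cav1KO cells on stiff gels and at 490.4 and 486 CPM in those on soft gels. The genotype difference was 5.54 (log2) on the stiff (limma adjusted p = 1.68e-07) and 7.11 on the soft substrate (limma adjusted p = 4.44e-08), in the opposite direction to Tagln, Actg2 and Cnn1.

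**Figure D5:**
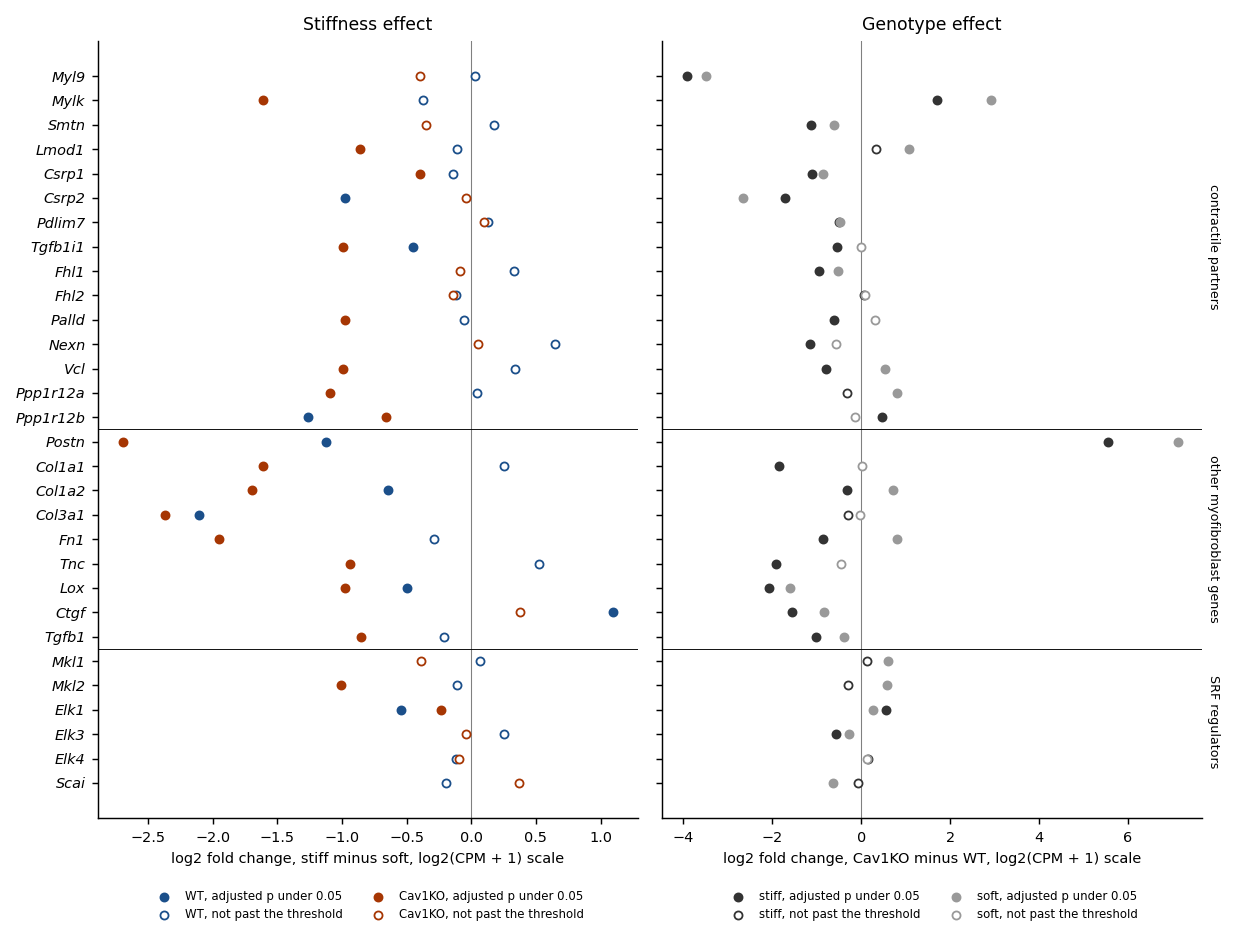
Log2 fold changes of contractile partners, other myofibroblast genes and SRF regulators, with the stiffness effect in each genotype on the left and the genotype effect on each substrate on the right, on the log2(CPM + 1) scale. Filled points passed a limma adjusted p of 0.05. Postn lies at 5.54 and 7.11 and Myl9 at -3.93 and -3.50 in the genotype comparison.

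Likeness of pattern was described by Pearson's r of log2(CPM + 1) over the 8 libraries of 4 groups, without a test. Among the 10 genes, Tagln and Actg2 had an r of 0.995 and Tpm1 and Srf one of 0.976. Cald1 had values between -0.65 and -0.01 with 8 of the others, and 0.72 with Cnn2. Outside the 10, and among genes with a mean of at least 5 CPM, the gene most like Acta2 was Tspan9 (r = 0.983), followed by Bahcc1, Sfxn2, Hspa1b and Gga3. Tspan9, a tetraspanin gene, had mean levels of 116 and 83.1 CPM in WT and of 30.0 and 49.7 CPM in Cav1KO cells on stiff and soft gels. The genes most like Tagln were Pdpn (r = 0.999), Cck, Thbd, Tmod2 and Dusp9. Pdpn, which encodes the membrane glycoprotein podoplanin, had mean levels of 317, 231, 46.8 and 37.8 CPM in the same order of groups, and Thbd, which encodes thrombomodulin, had 461, 224, 2.03 and 1.19 CPM. Among the 5 genes most like Srf were Mib1 (r = 0.997), Gpd2, Kat7 and Lrpprc, and Mib1, a ubiquitin ligase gene of the Notch pathway, had mean levels of 159, 110.5, 101 and 83.9 CPM. With 4 groups of 2 libraries, such values largely follow the order of the 4 group means.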

How the data were processed

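Poly(A) RNA from 8 libraries was prepared from 500 ng of total RNA and read from 1 end for 60 nt. As a matrix of genes by libraries, the authors deposited TMM-normalized CPM, a signal equal to the read count divided by a library size factor. The submitters' processing notes name CASAVA 1.8.2, cutadapt, RSEM 1.2.3 and GRCm38, whose roles and settings are not given in the sources used here. The methods name no test for the fold changes of single genes. They do name a Fisher exact test for the enrichment of a set of genes. All deposited values (100%, within 0.01 read) were whole multiples of the value of 1 read, so reads were recovered.

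Genotype and substrate, as labelled, set the groups. A gene entered the fit if 2 or more libraries had 1 CPM or more (12494 of 12528). The fit used log2(CPM + 1) and limma (version 3.58.1, R version 4.3.3), with all 4 groups in 1 fit, a mean-variance trend and no block, in 5 contrasts. Alternatives were edgeR 4.0.16 and DESeq2 1.42.0 on the recovered reads, pseudocounts of 0.5 and 5, other filters, scalings and variance models, a replicate block, a required 2-fold change, each library left out in turn, and, added after seeing the data, removal of the trend with transcript length by loess. Counting intervals are exact and cover 95%, and they cover counting error only, since the reads carry no molecular identifiers.

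The 10 genes, the gene lists and the alternatives were chosen with earlier results of these data known. The named genes are the 10, Cav1, the genes of the lists, and the 5 genes of at least 5 CPM most like Acta2, Tagln and Srf. Of these, 2 genes are not reported here, and 1 of them was taken out of its list before counting. Identifiers matched GENCODE M21 for 12451 genes.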

Additional observations from a re-analysis of the deposited data

Results flagged for a closer look

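For 5 of the 10 genes the stiffness effect differed between WT and Cav1KO cells by the test of the difference itself, the limma interaction. The difference, WT minus Cav1KO, was 0.99 for Acta2 (limma adjusted p = 0.00752), 0.72 for Actg2 (0.0445), 0.999 for Cnn1 (0.0431), 0.52 for Cnn2 (0.0306) and 0.95 for Cald1 (0.0269). For Acta2 the libraries moved in opposite directions, with both WT stiff libraries above both WT soft libraries and both Cav1KO stiff libraries below both Cav1KO soft libraries. For Cnn2 the libraries were arranged in the same way, though its value in WT cells was not called (0.16, limma adjusted p = 0.131). Of all genes tested, 75.3% had libraries apart between substrates in WT and 78.5% in Cav1KO cells. For Cald1 the WT groups overlapped, and the fall in Cav1KO cells (-0.80) made up most of the difference. For Actg2 the Cav1KO libraries held 26 to 37 reads, with a value of -0.08 beside 0.65 in WT cells. For Cnn1 they held 1 to 10 reads, and the value beside 0.78 in WT cells was -0.22 with limma on log2(CPM + 1) and -1.21 with edgeR, neither of which passed.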

How the results depend on the processing

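Of 639 comparisons of a gene's effect with its value under another setting, 581 kept their direction and side of the threshold, 47 lost the call, 6 gained it and 5 turned direction. Of 400 with a library left out, the numbers were 351, 42, 4 and 3. The difference between the stiffness effects was called for 5 genes, for 3 with edgeR, DESeq2, a pseudocount of 0.5 or no mean-variance trend, and for 0 to 5 with a library left out. With a 2-fold change required, the calls were 1 for stiffness in WT cells, 0 in Cav1KO cells, 0 for the difference, and 4 and 3 for genotype on the stiff and soft substrate. That setting alters the cut and not the fit, and most of the 47 lost calls came from it. All turns of direction were in values that did not pass. They were Actg2 in Cav1KO cells (0.0088 with median centring, 0.23 with quantile normalization, and -0.17 to 0.010 with a library left out, the latter without the second Cav1KO soft library), Tpm2 in WT cells (-0.050 with quantile normalization, -0.087 to 0.12 with a library left out, the former without the first WT soft library), the difference for Tpm4 (0.015 with quantile normalization, 0.032 with the length trend removed) and Cald1 between genotypes on the stiff substrate (-0.38 to 0.026 with a library left out, the latter without the second Cav1KO stiff library). The cause was not tested.

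Over all genes, the 1309 calls of the difference became 705 without a mean-variance trend, 471 with a 2-fold change required, and 110 to 3436 with a library left out, the lowest without the first Cav1KO soft and the highest without the first Cav1KO stiff library. The 2-fold requirement left 1051 and 1473 calls for stiffness in WT and Cav1KO cells and 1713 and 1951 for genotype on the stiff and soft substrate. Without the first WT soft library, 3913 genes were called for stiffness in WT cells, beside 6046. With the length trend removed, 3699 were higher and 2940 lower there, beside 2763 and 3283.

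The replicate numbers are tied by the labels to no shared day or culture. Deviations of libraries with the same number correlated by -0.37 to 0.42 over the 6 pairs of groups. The highest value was between WT stiff and Cav1KO stiff, and the lowest between WT stiff and WT soft. Whether libraries with the same number shared a step of their handling was not tested. With the number as a replicate block, the calls among the 10 genes were 7, 7, 5, 9 and 9 in the order of the comparisons above, as without it, and 1324 genes were called for the difference. With 1 library left in a group, its spread was taken from the other groups. Depth limits Cnn1, Actg2 and Tagln in Cav1KO cells, at 1 to 53 reads per library.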
